A study of Mus musculus with 30 samples.

Results

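The 8 genes described here, of 20321 in the table, are those commonly read as marks of smooth muscle cells, pericytes and myofibroblasts: Acta2, Tagln, Myh11, Cnn1, Rgs5, Des, Pdgfrb and Pdgfra. They were picked by symbol, and all 8 passed the filter on low counts. Their levels were followed in amputated digits of 30 adult male C57Bl/6 mice, 9 to 10 weeks old, in which at most 33% of the distal phalanx of hindlimb digit 3 had been removed, without suturing. Digits were collected at 0 h (right after amputation), on the first day at 3 h, 6 h, 12 h and 24 h, and on days 3, 14 and 21, from 3 mice each, and on day 7 from 6 mice. No genetic change is named for any group, and no drug other than the anesthesia for each amputation. The 0 h mice, amputated as well, were the control of all 8 comparisons with later times, which therefore share the same 3 samples. Each sample is RNA of a whole digit end, which holds skin, sweat glands, vessels, nail, connective tissue and bone, so that fewer cells of a type and less RNA per cell cannot be told apart.

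Smooth muscle cells and pericytes, together called mural cells, wrap blood vessels and set their width. Smooth muscle cells contract through thick filaments of smooth muscle myosin (Myh11) that slide along thin filaments of smooth muscle actin (Acta2), on which calponin (Cnn1) and transgelin (Tagln) sit, while desmin (Des) forms the intermediate filaments that hold the contractile units in place. Pericytes carry the receptor PDGFRβ (Pdgfrb), through which PDGF-B made by endothelial cells recruits them, and the G protein regulator Rgs5, whereas fibroblasts carry PDGFRα (Pdgfra). In a healing wound fibroblasts can take up Acta2 and become myofibroblasts, which pull the wound edges together and lay down matrix. None of these genes belongs to a single cell type: the myoepithelial cells around sweat glands also make Acta2, Myh11 and Cnn1, and skeletal muscle also makes Des.

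Many of the contractile genes are switched on by serum response factor, which binds a 10-base element called the CArG box (CC, then 6 bases that are A or T, then GG). The promoter of Acta2, from 250 bases before to 50 bases after its RefSeq start (GRCm38.p6, chr19:34255324-34255623, minus strand), is shown because it alone among the 5 members with a promoter in the table held CArG-like elements. The capitals mark the runs that match the CArG box with at most 1 mismatch.
Acta2: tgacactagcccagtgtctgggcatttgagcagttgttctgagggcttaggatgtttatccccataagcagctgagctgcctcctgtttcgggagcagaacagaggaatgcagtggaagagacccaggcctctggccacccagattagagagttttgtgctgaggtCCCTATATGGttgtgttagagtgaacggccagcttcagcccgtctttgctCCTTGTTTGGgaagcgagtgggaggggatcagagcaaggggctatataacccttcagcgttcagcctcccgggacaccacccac
The runs begin 84 and 34 bases before that start, and each holds 1 mismatch. The GENCODE model of Acta2 begins further upstream, at base 34255590, so that most of this window is transcribed in that model. None of the promoters of Acta2, Cnn1, Rgs5, Des and Pdgfra held an exact CArG box, which 1.63% of all 32851 promoters of this length hold. With 1 mismatch allowed, Acta2 held 2, where 3.7% of all promoters held 2 or more, and the other 4 held none in this window, while 21.1% of all promoters held at least 1. Tagln, Myh11 and Pdgfrb have no entry in the promoter table. The element reads the same on both strands, and a match describes letters only.

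By level per transcript length (TPM, averaged over the 30 mice), Acta2 was the most abundant of the 8, with 158 TPM, followed by Rgs5 with 145 and Tagln with 90.6. Myh11 had 63.2 TPM, Pdgfra 33.2, Pdgfrb 19.4 and Cnn1 12.6, while Des had 1.56. Smooth muscle and pericyte markers were thus well measured, with at least 100 counts in all 30 samples for Acta2, Tagln, Myh11, Rgs5 and Pdgfra and in 28 for Pdgfrb. Cnn1 reached 100 counts in 12 samples and Des in 1, and Des had at most 3 counts in 6 samples. Few read-length stretches of the 8 genes are shared with another gene: of the 65-base windows of the longest coding transcript, 0.3% of Acta2, 1.5% of Myh11 and 2.9% of Tagln lay within 2 mismatches of another gene, and none of the other 5. The expected counts of Acta2 were nevertheless whole in only 1 of 30 samples and those of Myh11 in 3, and the source of the fractions was not tested, since the windows are those of GENCODE vM21 and not of the gene models the counts were made with. The windows of Acta2 matched Actg1, the cytoplasmic γ-actin. The stretch that this pair of actins shares is printed to show how close they come, with the bases that differ in capitals. In Acta2 it lies in a single coding exon (GRCm38, chr19:34243330-34243406, minus strand).
Acta2: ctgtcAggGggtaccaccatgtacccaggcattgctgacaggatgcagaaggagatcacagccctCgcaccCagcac
Actg1: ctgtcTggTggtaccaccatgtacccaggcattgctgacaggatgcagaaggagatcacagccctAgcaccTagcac

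Total expected counts per sample ran from 3167625 to 16277816, with a median of 6103688. Dates in the labels split the mice into an earlier campaign (16 mice, July and August) and a later one (14 mice, November to January). All mice at 3 h and 12 h are from the earlier and all at 21 d from the later campaign, so that at these times campaign and time cannot be told apart without the 0 h mice, of which 1 is from the earlier and 2 are from the later campaign. Among the 7 d mice, mouse 3 had the fewest genes with a count, 12177, and 0 h mouse 2 stood apart in skeletal muscle genes (described with Des). Of the 7 d mice, 3 are left feet. Mice are numbered within a time point in the order of the deposit, which has no meaning of its own.

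Of the 8 genes, only Pdgfrb passed the test for a change over the 9 time points. In an F-test of the time terms together (edgeR's quasi-likelihood test, Benjamini-Hochberg adjustment over 13793 genes), its adjusted p was 0.00175, and 1 of 8 genes called compares with 9.01% of all genes tested. The adjusted p of the other 7 ran from 0.27 for Des to 0.603 for Tagln. Time accounted for 70.3% of the variance of Pdgfrb on the log2(CPM + 1) scale, where CPM are counts relative to the TMM-normalized library size, against 18.4% to 37.3% for the other 7 and a median of 36.5% over all genes tested. In the comparisons with 0 h none of the 8 was called at any time, where the share of all genes called was 0.254% at 3 h, 0.189% at 6 h, 0.167% at 12 h, 0.493% at 24 h, 0.551% at 3 d, 2.34% at 7 d, 1.61% at 14 d and 1.94% at 21 d. At an unadjusted p under 0.05, the number of the 8 was 0 at 3 h, 12 h and 24 h, 1 at 3 d, 2 at 6 h, 14 d and 21 d, and 3 at 7 d. Of all genes tested, 6.7% (3 d) to 13.3% (7 d) had such a p in these comparisons. DESeq2's test called 2 at 21 d, Pdgfrb and Des.

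**Figure D1:**
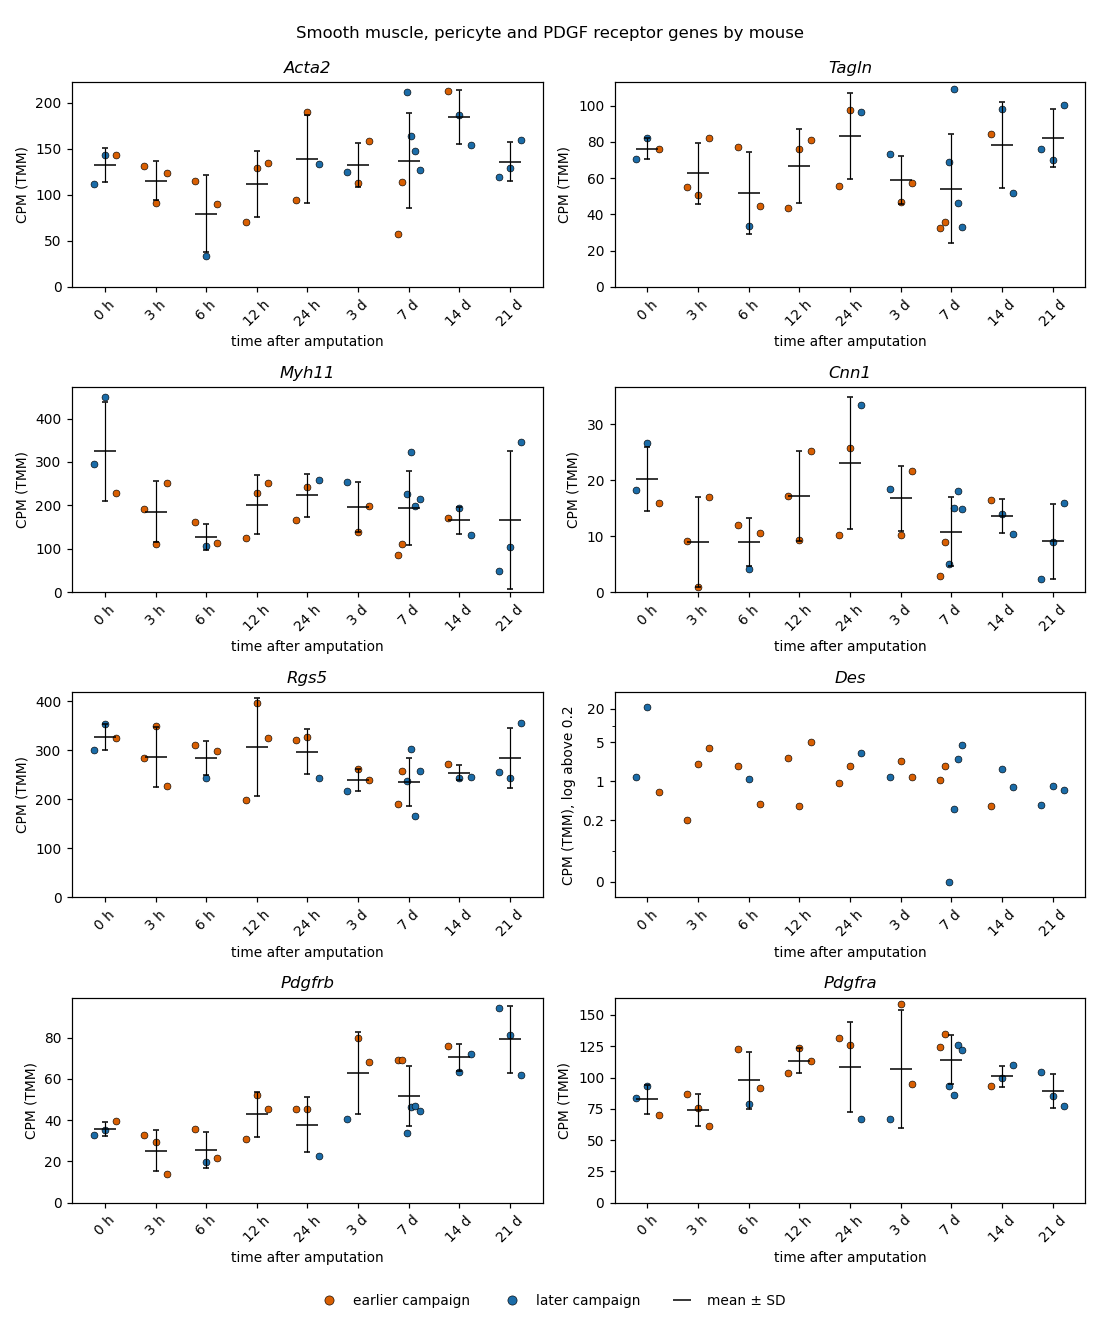
CPM (counts scaled to a common library size by TMM) of the 8 genes in each of the 30 mice at the 9 time points after amputation; points are mice coloured by campaign, and bars are the mean ± SD of a time point (not drawn for Des, whose axis is logarithmic above 0.2 CPM). Pdgfrb is lowest at 3 h and 6 h and highest at 14 d and 21 d, and 1 mouse at 0 h stands above all others for Des.

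Pdgfrb encodes the receptor that binds PDGF-B and PDGF-D and marks pericytes, other mural cells and part of the fibroblasts (ENSMUSG00000024620, GRCm38 chromosome 18, 61045150 to 61085061, plus strand). At 0 h the 3 mice had 32.6, 35.4 and 39.4 CPM. At 3 h they had 32.6, 29.3 and 13.7 CPM, and at 6 h 35.5, 19.5 and 21.7. These early samples lay within or below the range of the 0 h mice. At 12 h the values were 30.7, 52.2 and 45.2 CPM, and at 24 h 45.5, 45.5 and 22.4, on both sides of the 0 h range. At 3 d they were 40.6, 79.6 and 68.0 CPM, all above the 0 h mice. At 7 d the lowest of the 6 mice had 33.6 CPM, the median was 46.7 and the highest was 69.2, so that the range again included 0 h levels. The 2 mice of the earlier campaign had 69.15 and 69.18 CPM and the 4 of the later one 33.6 to 47.0. The share of all genes that part in this way was not computed. The same 2 mice had 762 and 848 TPM of summed myeloid markers, against 146 to 224 in the other 4, and 488 and 567 TPM of summed pericyte and mural genes against 247 to 290. A test of a time by campaign difference, over the 6 times with mice of both campaigns, gave Pdgfrb an adjusted p of 0.709 (edgeR, 21 mice). The part of campaign and of myeloid content in the 7 d values alone was not tested. At 14 d the mice had 75.9, 63.1 and 72.2 CPM, and at 21 d 94.1, 81.3 and 61.9. The 6 mice of 14 d and 21 d (61.9 to 94.1 CPM) did not overlap the 9 mice of 0 h, 3 h and 6 h (13.7 to 39.4 CPM), as held upward for 3.31% of all genes tested, with the times joined after their values were seen.

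Set against 0 h, the log2 fold change of Pdgfrb was -0.48 at both 3 h (95% interval -1.15 to 0.18) and 6 h (-1.14 to 0.17). It was 0.80 at 3 d (0.16 to 1.45), 0.53 at 7 d (-0.04 to 1.10), 0.98 at 14 d (0.33 to 1.62) and 1.15 at 21 d (0.50 to 1.79). By edgeR's quasi-likelihood test the adjusted p was 0.523 at 3 d, 0.16 at 14 d and 0.0536 at 21 d. All mice lay above all 0 h mice at 3 d, 14 d and 21 d, as held for 8.16%, 13.6% and 12.5% of all genes tested. With campaign as a covariate the adjusted p was 0.0215 at 14 d and 0.00102 at 21 d, and without the left-foot mice it was 0.0461 at 21 d. With total counts it was 0.289 and 0.233, with limma on log2(TPM + 1) 0.476 and 0.456, and without 21 d mouse 1 it was 0.398 at 21 d. Within the later campaign, the mean log2(CPM + 1) was higher than at 0 h by 0.97 at 14 d (2 against 2 mice) and by 1.18 at 21 d (3 against 2 mice). Within the earlier one it was higher by 0.89 at 3 d (2 mice against 1), by 0.80 at 7 d (2 against 1) and by 0.93 at 14 d (1 against 1), while at 3 d in the later campaign the difference was 0.25 (1 against 2) and at 7 d 0.32 (4 against 2). In the order of its means, which ran from 21 d through 14 d, 3 d, 7 d, 12 h, 24 h and 0 h down to 6 h and 3 h, the ranges of each pair of neighbours overlapped.

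**Figure D2:**
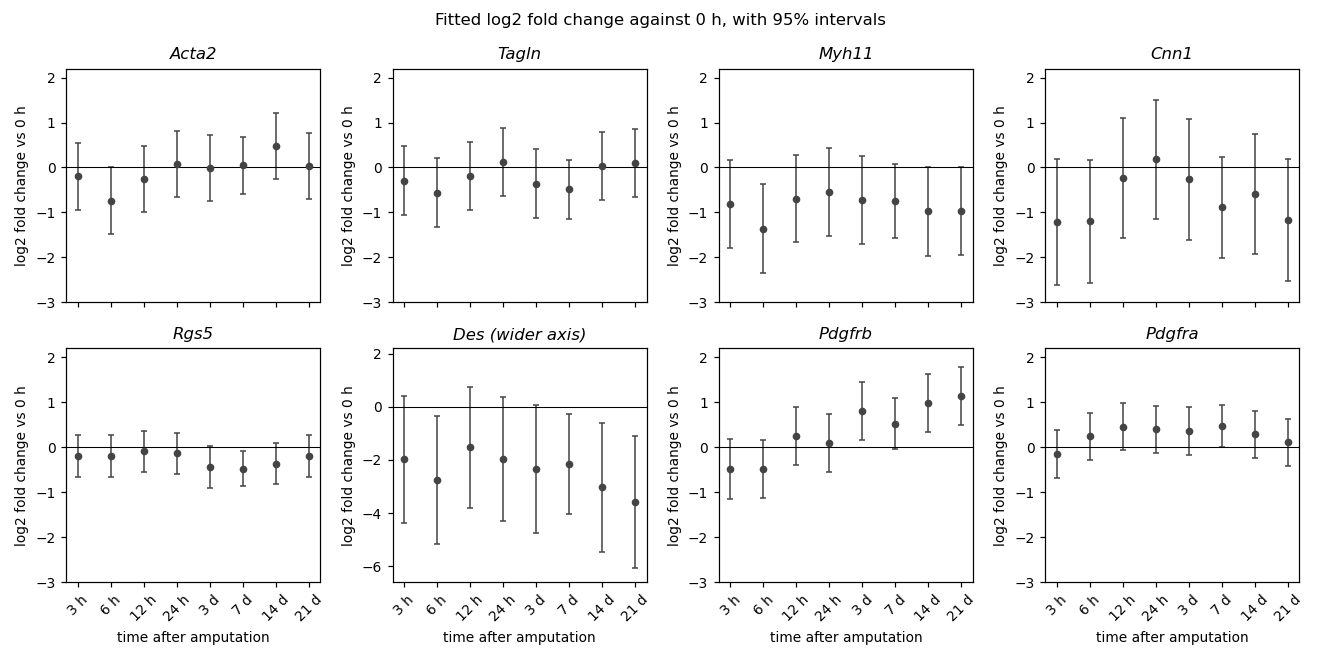
Fitted log2 fold change of each of the 8 genes against 0 h at the 8 later times, as points with 95% intervals from edgeR (Des has a wider axis). The intervals of Pdgfrb lie above 0 at 3 d, 14 d and 21 d, and those of Acta2 and Tagln reach 0 at every time.

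Pdgfra, the receptor that marks fibroblasts and binds PDGF-A and PDGF-C, did not pass the test over time (ENSMUSG00000029231, chromosome 5, 75152292 to 75198215, plus strand; adjusted p = 0.424, edgeR). Its mean was 82.5 ± 11.8 CPM at 0 h, 74.3 ± 12.7 at 3 h and 113 ± 9.73 at 12 h (SD, n = 3). The 12 h mice, with 104, 123 and 114 CPM, were all above the 0 h mice (70.1 to 93.5 CPM), as held for 9.82% of all genes tested. At 7 d it had 114 ± 19.8 CPM (SD, n = 6), and at 21 d 89.1 ± 13.8 (SD, n = 3). The log2 fold change against 0 h was at most 0.47, at 7 d (95% interval 0.01 to 0.93). The pair of receptors was correlated between mice (Spearman rho = 0.52, Pearson r = 0.54 over 30 mice on the log2(CPM + 1) scale, permutation p adjusted over 28 pairs of the 8 genes 0.02 and 0.0169). Without the 2 mice farthest from the median of Pdgfrb, r was 0.41, and for deviations from the mean of each time point it was 0.79. The ratio of Pdgfrb to Pdgfra was higher in the late samples. In TPM it was 0.47, 0.46 and 0.68 in the 0 h mice and 0.35, 0.30 and 0.29 in the 6 h mice. At 14 d it was 0.99, 0.77 and 0.80, and at 21 d 1.09, 1.15 and 0.97. The 6 late ratios lay above every ratio at 0 h, and no test was run on them.

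PDGF ligands are the signals these receptors bind. The share of all genes tested that passed the F-test over time was 9.01%. Of the 4 PDGF ligands, Pdgfc and Pdgfa passed the F-test over time (adjusted p = 8.67e-05 and 0.0201, edgeR), and Pdgfb and Pdgfd, with 0.502 and 0.433, did not. Pdgfc, a ligand of PDGFRα, rose at 14 d, with 14.7 ± 1.93 TPM, and at 21 d, with 15.8 ± 3.6, from 5.32 ± 1.06 at 0 h (SD, n = 3; log2 fold changes 1.41 and 1.66, adjusted p = 0.0449 and 0.0106). The 14 d mice had 16.8, 13.1 and 14.3 TPM, the 21 d mice 18.3, 17.5 and 11.7, and the 0 h mice 5.94, 5.92 and 4.09, without overlap. Pdgfa, the main ligand of the same receptor, was lowest at 3 h with 21.1 ± 6.87 TPM (SD, n = 3) and highest at 7 d with 52.6 ± 9.04 (SD, n = 6), against 37.3 ± 7.08 at 0 h (SD, n = 3), and was not called at any single time.

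**Figure D3:**
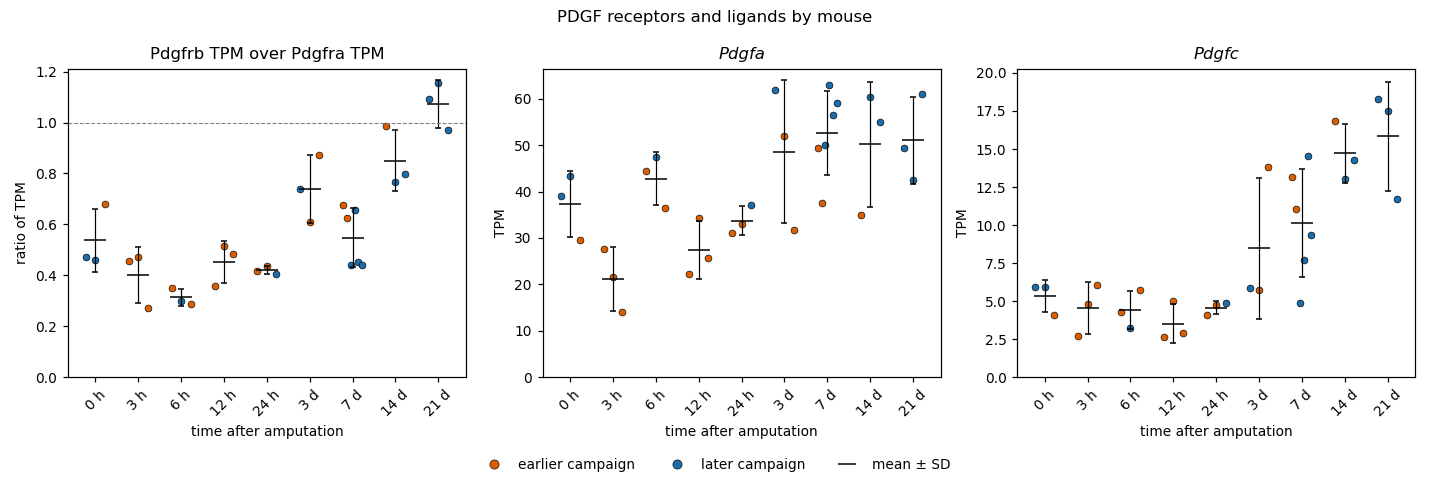
Ratio of Pdgfrb to Pdgfra TPM (left, dashed line at 1) and TPM of the ligands Pdgfa and Pdgfc (middle and right) by mouse at the 9 time points, coloured by campaign, with mean ± SD. The ratio is 0.77 or more in every mouse at 14 d and 21 d, and Pdgfc lies between 11.7 and 18.3 TPM in those mice.

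None of the 4 contractile genes passed the test over time. Acta2, the actin of smooth muscle and myofibroblasts (ENSMUSG00000035783, chromosome 19, 34241090 to 34255590, minus strand), had 112, 143 and 143 CPM in the 0 h mice. At 6 h, its lowest mean, it had 115, 33.2 and 89.9 CPM. At 7 d the lowest mouse had 57.5, the median was 137 and the highest was 212 CPM. At 14 d, its highest mean, the mice had 212, 187 and 154 CPM, all above the 0 h mice, which was so for 2 of the 8 genes (the other being Pdgfrb) and for 13.6% of all genes tested. At 21 d, with 119, 129 and 160 CPM, the mice overlapped those of 0 h again. The log2 fold change against 0 h was -0.74 at 6 h (95% interval -1.48 to 0.00) and 0.48 at 14 d (-0.26 to 1.21). At 6 h it was -0.35 without mouse 2 and -1.1 without mouse 1. The F-test over time gave an adjusted p of 0.393 (edgeR).

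Tagln, the actin-binding transgelin (ENSMUSG00000032085, chromosome 9, 45929619 to 45936058, minus strand), had values that overlapped between all time points. Its means ran from 51.8 ± 22.6 CPM at 6 h to 83.4 ± 23.9 at 24 h (SD, n = 3), against 76.3 ± 5.7 at 0 h (SD, n = 3). Of the 36 pairs of time points 0 were without overlap, where the median gene had 5. At 7 d the highest mouse reached 109 CPM and the lowest 32.6.

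Myh11, the smooth muscle myosin heavy chain (ENSMUSG00000018830, chromosome 16, 14194535 to 14291372, minus strand), had its highest mean at 0 h. The 0 h mice had 296, 451 and 228 CPM. At 3 h the values were 192, 112 and 252 CPM, and at 6 h 161, 107 and 112. All 6 h mice lay below all 0 h mice, as did those of Cnn1, and 9.19% of all genes tested did so. At 14 d, with 170, 194 and 132 CPM, all mice were again below those of 0 h, as were those of Rgs5 and of 11.8% of all genes tested. At 21 d the mice ranged widely, with 48.3, 105 and 347 CPM. The log2 fold change against 0 h was below 0 at all 8 times, from -0.54 at 24 h to -1.36 at 6 h (95% interval -2.35 to -0.37), and no adjusted p was under 0.431 (edgeR). At 21 d it was -0.97, with an adjusted p of 0.559. Without 21 d mouse 3, the mouse at 347 CPM, it was -2.09, with an adjusted p of 0.00985, so that 1 library decides that call. Without 21 d mouse 1 it was -0.52 and without 0 h mouse 2 -0.65, both with an adjusted p of 1.

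Cnn1, the calponin of differentiated smooth muscle (ENSMUSG00000001349, chromosome 9, 22099216 to 22109630, plus strand), varied more between mice of a time point than any of these except Des, with an SD within time points of 0.909 on the log2(CPM + 1) scale against a median of 0.416 over all genes. The 0 h mice had 18.2, 26.7 and 15.8 CPM. At 3 h they had 9.17, 0.894 and 17.0 CPM, the lowest value resting on 4 counts. At 24 h they had 10.1, 25.7 and 33.4 CPM, and at 21 d 2.32, 9.01 and 15.9. The fitted log2 fold changes ran from -1.21 at 3 h to 0.18 at 24 h, and the adjusted p over time was 0.47 (edgeR). At 3 h it was -0.66 without mouse 2 and -2.0 without mouse 3.

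The ratio of Acta2 to Myh11 was higher in most later samples. In TPM it was 1.42, 1.19 and 2.36 in the 0 h mice. It ran from 1.84 to 3.08 at 3 h, 1.17 to 3.02 at 6 h and 2.015 to 2.13 at 12 h. At 24 h it ran from 1.94 to 2.93 and at 3 d from 1.86 to 3.05. It lay between 1.91 and 3.88 in the 6 mice of 7 d, and was 4.71, 3.63 and 4.39 at 14 d. At 21 d it was 9.28, 4.63 and 1.73, with the mouse of high Myh11 at the low end. All 14 d ratios thus lay above those of 0 h, 2 of them above every ratio before 14 d, and no test was run on them.

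Myh11 and Cnn1 moved with the markers of sweat glands. Over the 30 mice, log2(TPM + 1) of Cnn1 correlated with the log2 sum, from the same libraries, of 8 eccrine gland markers with rho = 0.78 and r = 0.83, and Myh11 with rho = 0.72 and r = 0.80 (permutation p adjusted over 104 pairs of gene and marker list 0.000208 and 0.000347 for rho, 0.000149 for both r). An unadjusted p of 1e-05 is the smallest these permutations can give, and they shuffled all 30 mice without regard to time point or campaign. Without the 2 mice farthest from the median of the marker sum, r was 0.78 for Cnn1 and 0.66 for Myh11. For deviations from the mean of each time point r was 0.91 and 0.79. For Tagln rho was 0.48 and r 0.41 (adjusted p 0.0469 and 0.103), and for Acta2 0.27 and 0.39 (0.35 and 0.149). With the keratinocyte markers Myh11 gave rho = 0.44 and r = 0.51 (adjusted permutation p 0.0749 and 0.024), and Cnn1 0.27 and 0.29 (0.35 and 0.307). Without the 2 mice farthest from the median of that sum, r was 0.35 for Myh11 and 0.12 for Cnn1. As deviations from the mean of each time point r was 0.58 and 0.54. The 3 genes most like Cnn1 by Spearman's rho were Acss1 (0.86), the chloride transporter Slc12a2 (0.85) and Krt18, a keratin of glandular epithelium that is itself on the marker list (0.85). Those most like Myh11 were Slc12a2 (0.86), Hk1 (0.84) and Clic6 (0.83). Those most like Acta2 were Mylk, the kinase that switches on smooth muscle myosin (0.76), Rab11fip4 (0.70) and Slc6a2 (0.68), and those most like Tagln were Thbs1 (0.76), Stk39 (0.73) and Adcy8 (0.66).

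The summed level of the 8 eccrine markers was 168 to 209 TPM in the 0 h mice, 79.0 to 130 at 6 h and 30.3 to 153 at 21 d. The sample with the lowest sum, 30.3 TPM, was 21 d mouse 1, which also had the lowest Myh11 of all 30 samples. None of the 8 markers passed the F-test over time (edgeR), and 1 had an unadjusted p under 0.05, as had 24.1% of all genes tested. The most abundant, the water channel Aqp5, had 102 TPM on average at 0 h and 57.1 at 21 d (adjusted p over time 0.219, edgeR). The part of gland content in the values of Myh11 and Cnn1 was not tested.

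**Figure D4:**
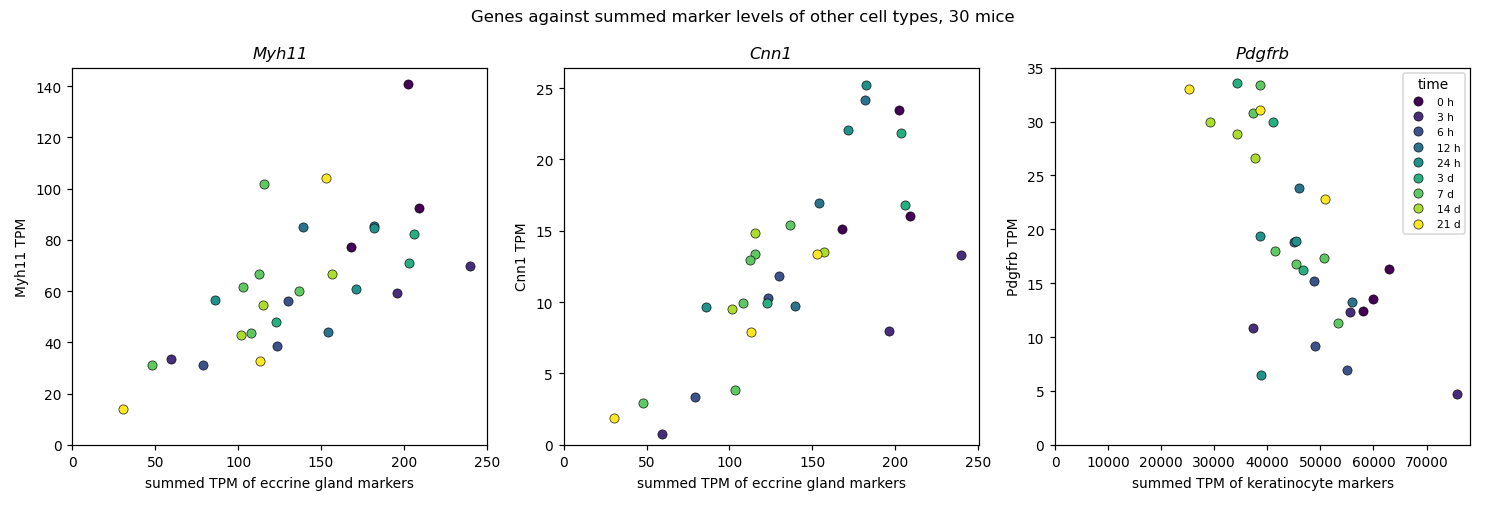
TPM of Myh11 (left) and Cnn1 (middle) against the summed TPM of 8 eccrine gland markers, and TPM of Pdgfrb against the summed TPM of 8 keratinocyte markers (right); points are the 30 mice, coloured by time point. Myh11 and Cnn1 are high where the gland markers are high, and Pdgfrb is high where keratinocyte markers are low.

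For Pdgfrb, log2(TPM + 1) correlated with the summed pericyte and mural genes beside the 8 (rho = 0.86, r = 0.86), with the summed myofibroblast genes (0.85 and 0.85), with the myeloid markers (0.79 and 0.79), the dermal fibroblast genes (0.70 and 0.70) and the endothelial markers (0.68 and 0.72), and inversely with the keratinocyte markers (-0.68 and -0.68). The adjusted permutation p of these rho was between 0.000208 and 0.000578 (104 pairs). Without the 2 mice farthest from the median of the sum, the r were 0.81, 0.81, 0.78, 0.70, 0.66 and -0.57. For deviations from the mean of each time point they were 0.81, 0.84, 0.72, 0.85, 0.87 and -0.55. The PDGF ligands (rho = 0.54, r = 0.60, adjusted p of rho 0.0229) and the osteoblast markers (0.51 and 0.58, 0.0302) gave lower values, and as deviations from the mean of each time point their r were 0.23 and 0.12. With the same pericyte and mural sum Rgs5 gave rho = 0.07 and r = 0.13, and Pdgfra 0.47 and 0.59. With the endothelial markers Rgs5 gave 0.30 and 0.35, and Pdgfra 0.78 and 0.79. As such deviations the r with these sums were 0.43 and 0.74 for Rgs5, and 0.66 and 0.80 for Pdgfra. The keratinocyte markers summed to 58020 to 62930 TPM at 0 h and to 29200 to 37740 at 14 d, and at 21 d to 25200 to 50890, below every 0 h mouse at both times. The part of epidermal RNA in the change of Pdgfrb was not tested. The genes most like Pdgfrb were Sdc3, Emilin1 and Grb10, with rho from 0.90 to 0.92, and those most like Pdgfra were Ltbp1, Lrp1 and Masp1, with rho from 0.80 to 0.82.

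Rgs5, a brake on G protein signalling that marks pericytes (ENSMUSG00000026678, chromosome 1, 169655501 to 169695813, plus strand), was the steadiest of the 8, with an SD within time points of 0.281 on the log2 scale. It had 327 ± 26.4 CPM at 0 h, 240 ± 22.5 at 3 d and 254 ± 15.6 at 14 d (SD, n = 3). The 3 d mice, with 217, 262 and 240 CPM, all lay below the 0 h mice (301 to 354 CPM), and 7.08% of all genes tested did so. At 7 d it had 235 ± 49.8 CPM (SD, n = 6), a log2 fold change of -0.47 (95% interval -0.87 to -0.08, adjusted p = 0.248, edgeR). Pdgfrb and Rgs5, both read as pericyte marks, thus lay on opposite sides of their 0 h levels at 3 d and 14 d. The ratio of Pdgfrb to Rgs5 TPM was 0.0756 to 0.0914 in the 0 h mice and 0.196 to 0.222 at 14 d. Over the 30 mice the pair gave values near 0 (rho = -0.06, r = -0.04, adjusted permutation p 0.796 and 0.956, 28 pairs; r without the 2 farthest mice -0.06), while as deviations from the mean of each time point r was 0.41. The genes most like Rgs5 were Riok1 (0.67), Podxl (0.64) and Rgs6 (0.64).

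Des, the muscle intermediate filament (ENSMUSG00000026208, chromosome 1, 75360329 to 75368579, plus strand), was near the limit of what the depth can show. The 0 h mice had 1.2, 21.6 and 0.640 CPM, and in the other 27 mice it was at most 5.15 CPM. It had no count in 7 d mouse 3, which at that depth allows up to 0.496 CPM (3 counts, counting error only). The fitted log2 fold changes against 0 h, from -1.52 at 12 h to -3.59 at 21 d, rested on 0 h mouse 2. Without that mouse they ran from 0.03 at 14 d to 1.53 at 12 h, except at 21 d with -0.54, and none was called with or without it (edgeR). DESeq2, with that mouse in, gave -3.66 at 21 d with an adjusted p of 0.0403. The same mouse had the highest sum of 15 skeletal muscle markers, 204 TPM, against 0.06 to 34.7 TPM in the other 29, and all 15 had a count there. Among them, chosen after their values were seen, Tnnc2 had 43.3 TPM and Acta1 38.2 TPM in that mouse, against 0.49 and 0.24 in mouse 1 and none in mouse 3. The most abundant marker on average was Tnni2, with 35.1 TPM in mouse 2. The part of skeletal muscle in that Des value was not tested. The genes most like Des over the 30 mice were 2610528J11Rik (0.72), Tprkb (0.67) and Ptgir (0.61).

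**Figure D5:**
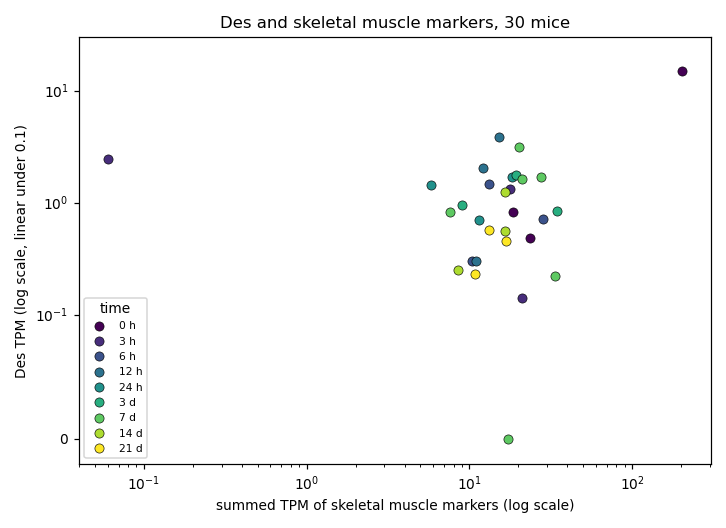
Des TPM (log axis, linear under 0.1) against the summed TPM of 15 skeletal muscle markers (log axis) in the 30 mice, coloured by time point. One 0 h mouse stands alone at 204 TPM of the markers and 14.9 TPM of Des, and the other 29 lie at or below 34.7 TPM of the markers and 3.85 TPM of Des.

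Between successive times none of the 8 was called either, by edgeR's quasi-likelihood test. The share of all genes called was 0.16% for 6 h against 3 h, 0.0% for 12 h against 6 h and for 24 h against 12 h, 0.0653% for 3 d against 24 h, 0.0145% for 7 d against 3 d, 0.435% for 14 d against 7 d and 0.0% for 21 d against 14 d. At an unadjusted p under 0.05 there were 914, 1068 and 270 genes in the comparisons without a call, in that order, and of the 8 only Pdgfrb from 6 h to 12 h and from 24 h to 3 d. From 6 h to 12 h all 8 had a fitted log2 fold change above 0, as had 50.8% of all genes, with a median of 0.58 against 0.01 over all genes. Against 0 h, all 8 were below 0 at 3 h and 7 of 8 at 6 h, as were 51.3% and 50.7% of all genes.

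The courses of Acta2 in the campaigns differed by eye at 7 d. The 2 mice of the earlier campaign had 57.5 and 114 CPM and the 4 of the later one 126 to 212 CPM. Of these 4, 3 are the left feet. In the test of a time by campaign difference over the 6 times with mice of both campaigns (21 mice), none of the 8 was called, as against 0.883% of 13587 genes. Acta2, Myh11 and Pdgfra had an unadjusted p under 0.05, and their adjusted p was 0.171, 0.269 and 0.314 (edgeR). Of all genes tested, 13.1% had such an unadjusted p. Myh11 had 86.0 and 111 CPM in the earlier 7 d mice and 199 to 323 CPM in the later ones. Without the left-foot mice the log2 fold change of Acta2 at 7 d against 0 h was -0.29, in place of 0.05.

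Beside the 8, part of the genes of the contractile apparatus passed the F-test over time. For this list and those below, the share of all genes tested that passed was 9.01%. The lists were chosen with earlier results of these data known, so that their counts give no independent support. Of 18 on that list 16 were tested, and 3 passed the F-test over time: Cald1, which links actin and myosin (adjusted p = 0.00105), the actin-stabilizing tropomyosin Tpm1 (0.00523) and the LIM protein Csrp1 (0.0289). Cald1 had 100 ± 37.9 TPM at 0 h, 40.2 ± 3.58 at 3 h and 187 ± 19.8 at 21 d (SD, n = 3). Tpm1 had 523 ± 153 TPM at 0 h, 334 ± 90.4 at 6 h and 824 ± 111 at 21 d (SD, n = 3). None was called against 0 h at any time. These genes are also made outside muscle. The median log2 fold change of the list was -0.65 at 6 h and 0.14 at 21 d, against -0.01 and -0.00 over all genes.

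Of the 16 pericyte and mural genes, 4 passed the F-test: the adhesion molecule Mcam (adjusted p = 0.0155), the Tie2 ligand Angpt1 (0.0179), Ndufa4l2 (0.0285) and the potassium channel subunit Abcc9 (0.0473). Angpt1 was lowest at 3 h, with 0.92 ± 1.5 TPM, and highest at 21 d, with 7.87 ± 2.15 (SD, n = 3). Mcam was highest at 3 d, with 76.2 TPM against 36.5 at 0 h. Abcc9 was highest at 7 d, with 9.06 ± 6.77 TPM (SD, n = 6). Their times of highest level thus differed, and none was called against 0 h. The other 12, Cspg4 and Notch3 among them (adjusted p = 0.439 and 0.459; chosen after their values were seen), did not pass.

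Of the 8 regulators of contractile genes only Tead1 passed (adjusted p = 0.0444, edgeR), a share near the 9.01% of all genes tested. Tead1 rose at 21 d, from 11.8 ± 0.96 to 19.3 ± 1.23 TPM (SD, n = 3, adjusted p = 0.0224). Myocd, the cofactor that drives the smooth muscle programme, averaged 0.239 TPM over the 30 mice and is named after its value was seen.

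Of the 14 genes on the myofibroblast list, mostly of the matrix and adhesion, 10 passed the F-test over time, against 9.01% of all genes tested. This list too was chosen with earlier results of these data known. Higher than at 0 h were 1, 1, 2, 4, 7 and 9 at 12 h, 24 h, 3 d, 7 d, 14 d and 21 d, with none lower. The share of all genes called against 0 h at these times, in either direction, was 0.167%, 0.493%, 0.551%, 2.34%, 1.61% and 1.94%. Cthrc1, a secreted collagen-associated protein, rose from 10.7 ± 4.92 TPM at 0 h to 272 ± 35.3 at 14 d (SD, n = 3; log2 fold change 4.57, adjusted p = 8.18e-09). The collagen crosslinker Lox rose from 20.6 ± 3.28 to 166 ± 17.1 TPM and N-cadherin (Cdh2) from 6.97 ± 2.58 to 48.3 ± 26.5 at 14 d (adjusted p = 0.000241 and 6.51e-05). Tenascin C (Tnc) was called first, at 12 h, and reached 132 ± 53.2 TPM at 21 d, and periostin (Postn) reached 998 ± 231. Several of these genes are also made by osteoblasts, whose 8 markers summed to 235 to 460 TPM at 0 h and to 2817 to 3450 TPM at 21 d, with 4 of 8 called higher at 14 d and at 21 d. The part of bone-forming cells in the change of the matrix genes was not tested. Acta2, which myofibroblasts share with smooth muscle and sweat gland cells, was not called at any of these times. All its 14 d mice lay above those of 0 h, as held for 13.6% of all genes tested. The part of myofibroblasts in its level was not tested.

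Of 10 dermal fibroblast genes 4 passed the F-test over time (Lum, Fbln1, Thy1, Col15a1), of 12 endothelial markers 3 (Flt1, Vwf, Cdh5) and of 8 myeloid markers 3 (Ptprc, Csf1r, S100a8). Flt1 and Cdh5, a VEGF receptor and the endothelial cadherin, were called higher at 7 d (log2 fold changes 0.84 and 1.54, adjusted p = 0.0285 and 0.00721). The endothelial sum was 129 to 155 TPM at 0 h, 166 to 231 at 3 d, 152 to 325 at 7 d, 175 to 211 at 14 d and 138 to 144 at 21 d. Of the 3 times at which every Pdgfrb value lay above 0 h, the endothelial sum was thus above its 0 h range at 3 d and 14 d and within it at 21 d. No keratinocyte or skeletal muscle marker passed, of 8 and 7 tested. At an unadjusted p under 0.05 in that F-test there were 3 and 0, where 24.1% of all genes tested had such a p. Of the osteoblast markers 7 of 8 passed and of the erythroid ones 3 of 5. All 3 of the latter were called lower at 21 d, where 1.94% of all genes tested were called in either direction.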

How the data were processed

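Poly(A) RNA of amputated digits was sequenced as single reads of 65 bases. Per the study's methods and the submitters' processing notes (CASAVA 1.8.2, RSEM 1.2.3), the authors mapped reads to Ensembl release 75 genes with Bowtie, allowing 2 mismatches, and RSEM spread reads with several hits over genes. The authors deposited expected counts, not normalized, and TPM, relative to all genes of a sample. The deposited averages per time point were not used. Of the expected counts 78.1% were whole, and all were rounded.

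Counts were tested in edgeR 4.0.16 (R 4.3.3) with TMM factors (0.874 to 1.15), its low-count filter by time point (13793 genes kept), a single quasi-likelihood fit of all 30 mice without covariates, and Benjamini-Hochberg adjustment at 0.05. CPM are counts scaled by the TMM library size. Intervals are 95% and, with the limit that a count of 0 allows (3 counts), cover no PCR duplication. Permutation tests of correlations used 100000 permutations, two-sided (Python 3.11.15, scipy 1.17.1). They shuffled all 30 mice without regard to time point or campaign, so that a shared course over time also counts as correlation. Alternatives were DESeq2 1.42.0 (size factors and test), total counts, limma 3.58.1 on log2(TPM + 1) and log2(TPM + 0.1), no filter, 10 counts in 3 samples, campaign as covariate, no left-foot mice, a threshold of 0.01, only the 2 times compared, and each mouse left out. A further 2 were added after seeing the data: 0 h mouse 2 and 7 d mouse 3 left out together, and differences within campaigns.

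Symbols were matched to GENCODE vM21 (GRCm38) positions, and promoters and the build GRCm38.p6 are those of RefSeq, with 5 of the 8 genes matched. The 8 genes and the lists were chosen with earlier results of these data known. Named are all 8, of each list the genes past the F-test over time (at most 5, by p) or else the one of highest mean TPM, and the 3 genes most like each of the 8 by Spearman's rho of log2 CPM. The labels give each sample an animal code, and the code of a 0 h sample recurs with the same date on a 12 h sample. No 2 samples of the same time point looked like 1 library (chi-square per degree of freedom 9.8 to 97.0 over 39 pairs). Samples of different times, such as that 0 h and 12 h pair, were not compared in this way. Whether that pair comes from 1 mouse was not tested.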

Additional observations from a re-analysis of the deposited data

Results flagged for a closer look

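At 7 d, the only time with more than 3 mice, 12 measures of the 6 mice were examined: the CPM of the 8 genes, 2 ratios, the skeletal muscle sum and the number of genes with a count. Only the last held a sample far from the others. The 7 d mouse 3, a left foot of the later campaign, had 12177 genes with a count, and its gap to the next mouse was 0.664 of the range, above Dixon's 95% limit for 6 samples. Chance flags about 1 in 20 groups. In that mouse Pdgfrb was the lowest of the 6, with 33.6 CPM, Acta2 the highest, with 212 CPM, and Des had no count. Without it the F-test of Pdgfrb over time had an adjusted p of 0.00104, and at 21 d against 0 h of 0.0375 (edgeR).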

How the results depend on the processing

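The count of the 8 genes called over time was 1, Pdgfrb, under all alternatives but limma on log2(TPM + 0.1), where it was 0 (adjusted p of Pdgfrb 0.0501; 809 genes called, against 1243 with edgeR and 2452 with the DESeq2 test). At 14 d against 0 h the count rose from 0 to 1 (Pdgfrb) with campaign as a covariate and with only the 2 times compared. At 21 d it rose to 1 (Pdgfrb) without a filter, with campaign as a covariate, without left-foot mice and with only the 2 times compared, and to 2 (Des, Pdgfrb) with the DESeq2 test. Leaving out each mouse gave 0 to 2 at 21 d: 1 without 3 h mouse 3, 24 h mouse 3, 3 d mouse 1 or 7 d mouse 3, and 2 (Myh11, Pdgfrb) without 21 d mouse 3. All other counts were unchanged in the alternatives run for them. The adjusted p of Pdgfrb over time was 0.000812 to 0.00654 with each mouse left out. The cause of these differences was not tested, except where fewer samples or genes entered by construction.

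The following log2 fold changes, all uncalled, turned in direction by more than 1 standard error. Without left-foot mice, Acta2 went to -0.29 at 7 d against 0 h and -0.30 against 3 d, and Myh11 to 0.30 at 14 d against 7 d. Myh11 at 21 d against 14 d went to -0.55 and -0.58 in limma (pseudocounts 1 and 0.1), and ran from -1.13 (without 21 d mouse 3) to 0.44 with each mouse left out. Over the same omissions Rgs5 ran from -0.32 to 0.15 at 12 h against 0 h, from -0.13 to 0.34 at 12 h against 6 h and from -0.28 to 0.18 at 24 h against 12 h, with the extremes set by 12 h mice 1 and 2. Des against 0 h ran from -2.83 to 1.1 at 3 h, -3.28 to 0.31 at 6 h, -2.38 to 1.53 at 12 h, -2.5 to 1.09 at 24 h, -2.85 to 0.74 at 3 d, -2.72 to 0.92 at 7 d and -3.68 to 0.031 at 14 d, the upper end each time without 0 h mouse 2. With 7 d mouse 3 left out too, chosen after seeing the data, these upper ends were 1.1, 0.31, 1.53, 1.1, 0.74, 1.17 and 0.031. Pdgfrb at 12 h against 0 h went to -0.15 with campaign as a covariate. Pdgfra ran from -0.023 to 0.64 at 3 d against 0 h, from -0.41 to 0.24 at 3 d against 24 h and from -0.15 to 0.51 at 7 d against 3 d, set by 3 d mice 1 and 2.

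No paired analysis was possible because the labels give no replicate numbers shared between times, and only 1 animal code recurs with its date (0 h and 12 h). Where dates are shared between times, they fall within a campaign, which was tried as a covariate. With 3 mice a time point, a 2-fold change of a gene as variable as Cnn1 or Des lies within its interval, and Des is also limited by depth. For Des at 6 h and 21 d, comparing only the 2 times gave no value.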
